A study of Homo sapiens with 4 samples.

Results

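The TNRC6 (GW182) family comprises the 3 genes TNRC6A, TNRC6B and TNRC6C, taken here by name out of 60554 genes in a table of read counts. All 3 were among the 12662 genes whose mean normalised count was at least 50. The members were selected on the ratio of pull-down over input, because their mRNAs stood high on streptavidin beads with both of the miRNAs used. Their bead ratios below therefore describe that choice, and the comparisons between miRNAs use the same 4 libraries.

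Cells of IGROV1-R10, an ovarian cancer line, were transfected at 60 nM with biotin-carrying miR-491-5p or with a biotin-carrying worm miRNA as the control (cel-miR-65 in the design text). After removal of the nuclei, 10% of each lysate gave the input. The remainder spent 4 h with streptavidin beads, which were then washed 5 times to give the pull-down. The 4 groups were the miR-491-5p pull-down, the miR-491-5p input, the control pull-down and the control input, with 1 library in each, made from RNA pooled over 3 experiments. With 1 library in a group there is no spread between replicates to set a difference against, so p-values are not reported.

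TNRC6 proteins are the scaffolds of miRNA silencing. Glycine-tryptophan repeats in their amino-terminal part bind Argonaute proteins, which carry the miRNA, and their carboxy-terminal part binds the poly(A)-binding protein PABPC and recruits the PAN2-PAN3 and CCR4-NOT deadenylases, so that a targeted mRNA loses its poly(A) tail and is repressed. The 3 human paralogs are regarded as largely overlapping in this role. The transfected human miRNA is shown because it is the handle by which RNA was drawn to the beads, with its seed (bases 2 to 8), the stretch that mainly decides pairing to a target, in capitals.
hsa-miR-491-5p: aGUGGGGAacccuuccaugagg
This mature sequence is RefSeq's, from chromosome 9 (20716120 to 20716141, plus strand, GRCh38.p14). Transcript sequences were not used here, so seed sites in the TNRC6 mRNAs were not counted.

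The libraries held 61705443, 59588552, 62582646 and 47679684 counts in the order of groups above. The ovarian carcinoma markers fixed for the labelled cell type reached a normalised count of 50 for 8 of 10 genes in every library, with KRT8, KRT18, EPCAM and PAX8 abundant, MSLN at 9 to 14 counts and WFDC2 at 0. The control input stood apart in its hepatocyte markers (13 genes), which summed to 41 and 25 counts for pull-down and input with miR-491-5p, to 30 counts for the control pull-down and to 2847 counts, or 0.00597% of the library, for the control input. Above 0 were 8, 7, 8 and all 13 of them in these libraries. Fibroblast markers (7 genes) summed to 87 and 293 counts in the miR-491-5p pull-down and input and to 79 and 611 in the control pull-down and input, and 5 immune markers to at most 38 in any library. In bulk RNA, fewer cells of a type and less RNA per cell cannot be told apart. The labels name only IGROV1-R10, and where the hepatocyte and fibroblast transcripts came from was not tested. The members' control bead ratios and enrichments are therefore given below without the control input as well. Those of all other genes are given with the control input only.

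Per kilobase of exon, TNRC6B was the most abundant of the 3 mRNAs in all 4 libraries, TNRC6A the second and TNRC6C the lowest. TNRC6B lies on chromosome 22 (40044817 to 40335808, plus strand, GRCh38) with 29 merged exons that sum to 19998 bases, of which 64.8% is the last exon. It had 66660 counts in the pull-down with miR-491-5p against 12037 in its input, and 224565 in the control pull-down against 8408 in its input. Scaled with size factors and per kilobase, these were levels of 2695 and 629 with miR-491-5p and of 9972 and 540 with the control. By raw count TNRC6B held rank 58 of the 12662 genes in the miR-491-5p pull-down, rank 5 in the control pull-down, and ranks 1151 and 1336 in the inputs of miR-491-5p and of the control.

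TNRC6A, the founding member that was first described as the autoantigen GW182, lies on chromosome 16 (24729695 to 24827632, plus strand) with 25 merged exons of 12522 bases in all. It had 28410 counts in the pull-down with miR-491-5p against 4893 in its input, and 79777 in the control pull-down against 4013 in its input. Its levels per kilobase were 1834 and 408 with miR-491-5p, and 5658 and 412 with the control. Its name rests on an overlap of 0.444 of the joint span with RefSeq's TNRC6A, less than the other members had, because the gene in the table starts 119490 bases downstream of RefSeq's. The rule asked for at least 0.4. The inputs of both transfections were within 1% of each other for TNRC6A, while the pull-downs were not.

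TNRC6C lies on chromosome 17 (78004168 to 78108835, plus strand) with 24 merged exons of 11058 bases, 39.3% of them in the last exon. It had 5468 counts in the pull-down with miR-491-5p against 1091 in its input, and 11417 in the control pull-down against 616 in its input. Its levels per kilobase were 400 and 103 with miR-491-5p, and 917 and 71.6 with the control. TNRC6C was below the median gene in both inputs, at percentiles 27.6 and 21.8 of the level per kilobase with miR-491-5p and the control, where TNRC6A stood at 55.5 and 56.0 and TNRC6B at 66.0 and 62.6. On the beads the percentiles of all 3 were higher. With miR-491-5p they were 57.4 for TNRC6C, 90.3 for TNRC6A and 94.4 for TNRC6B, and with the control 76.4, 97.7 and 99.1.

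**Figure D1:**
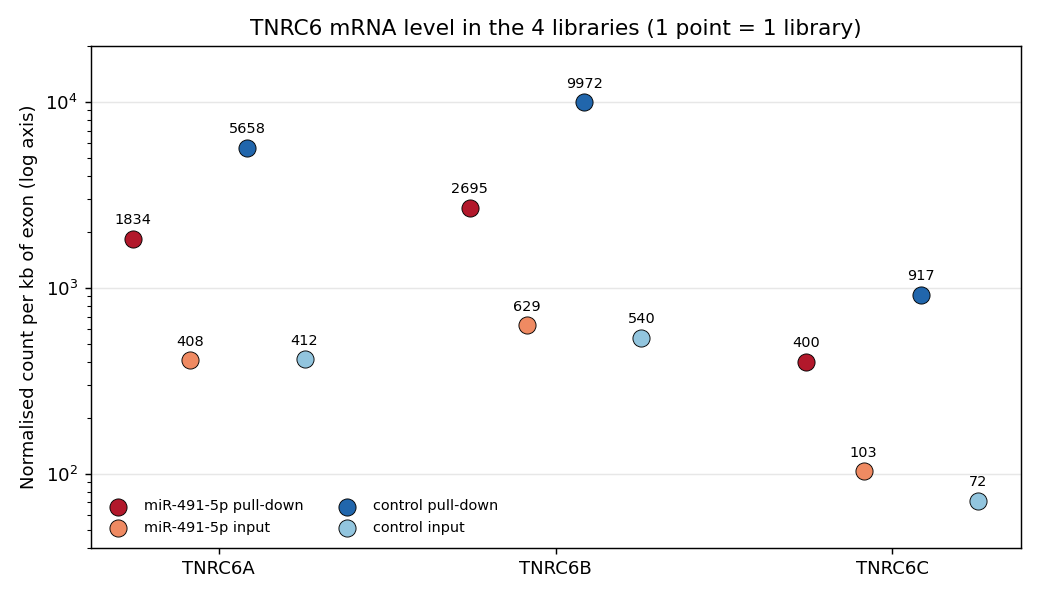
Normalised count per kb of exon (log axis) of each TNRC6 gene, 1 point per library, with the value above each point. For every gene the control pull-down is the highest point and the miR-491-5p pull-down the second, and both inputs lie below them.

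On the beads with miR-491-5p all 3 mRNAs stood about as far above their input as each other. The log2 ratio of pull-down over input was 2.17 for TNRC6A, with a 95% counting interval of 2.12 to 2.21. It was 2.10 for TNRC6B (2.07 to 2.13) and 1.95 for TNRC6C (1.86 to 2.05). These ratios correspond to 4.49-fold, 4.29-fold and 3.88-fold, where the median of all genes was -0.15. Such intervals cover counting error only, and they can understate even that. Each mate was counted by itself and no molecular identifiers are recorded, so several counts may stem from 1 molecule. The members differed little among themselves, with TNRC6B minus TNRC6A at -0.07 (-0.12 to -0.02) and TNRC6A minus TNRC6C at 0.21 (0.11 to 0.32). All 3 were past 2-fold with an interval that left out 0, as were 5.34% of the 12662 genes (4.96% were lower), and they held ranks 76, 88 and 108. This count repeats how the members were chosen and is no result about them. Under scaling by total counts, 1284 genes were at least 2-fold higher and 130 lower on these beads, against 676 and 628 with size factors.

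With the control miRNA the same mRNAs were higher on the beads still. The log2 ratio of pull-down over input was 4.21 for TNRC6B (4.17 to 4.24), 3.78 for TNRC6A (3.73 to 3.83) and 3.68 for TNRC6C (3.56 to 3.79), or 18.5-fold, 13.7-fold and 12.8-fold. The background of this call was 8.61% of genes (10% were lower), and the members held ranks 6, 8 and 12 of 12662. Under scaling by total counts, 1373 genes were higher and 820 lower, against 1090 and 1268 with size factors. TNRC6B exceeded TNRC6A by 0.43 (0.37 to 0.48) and TNRC6C by 0.53 (0.41 to 0.65) in log2 ratio, while TNRC6A minus TNRC6C was 0.10 with an interval that held 0 (-0.02 to 0.23). With the miR-491-5p input in place of the control input, an alternative chosen after the liver transcripts had been seen, the control ratios were 3.99 for TNRC6B, 3.79 for TNRC6A and 3.15 for TNRC6C. The control beads thus stood above the miR-491-5p beads for each member whichever input was used. The closeness of TNRC6A to TNRC6C on the control beads, however, depended on the control input.

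Only ACACA, which encodes acetyl-CoA carboxylase 1, was above TNRC6A on both beads, with log2 bead ratios of 3.70 on the miR-491-5p beads and 4.81 on the control beads, and likewise only ACACA was above TNRC6B on both. For TNRC6C there were 4 such genes, namely ACACA, TNRC6A, TNRC6B and ENSG00000278896.1. Genes past 2-fold on both beads numbered 337, or 2.66% of those measured (577 under scaling by total counts, and 123 with a minimum of 200 in place of 50). Their median bead ratios were 1.47 on the miR-491-5p beads and 1.71 on the control beads, so the gap between the miRNAs was wider for each TNRC6 gene than for the median of these genes.

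**Figure D2:**
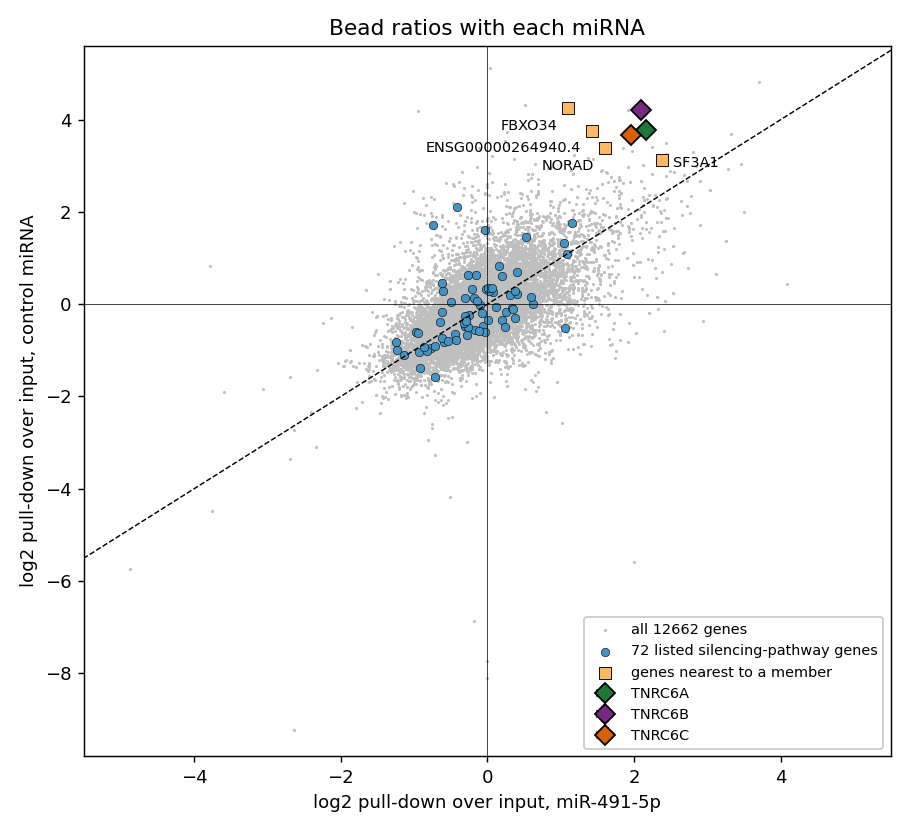
log2 pull-down over input for miR-491-5p (horizontal) and the control miRNA (vertical). Grey points are all 12662 genes, blue circles 72 listed genes of the silencing pathway, squares the genes nearest to a member, and diamonds the TNRC6 genes with 95% counting intervals, which are mostly smaller than the symbols. The diamonds lie above the dashed line of equal ratios, at 1.95 to 2.17 across and 3.68 to 4.21 up.

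Set against each other directly, the pull-downs had lower normalised TNRC6 counts with miR-491-5p than with the control. The log2 ratio of the miR-491-5p pull-down over the control pull-down was -1.89 for TNRC6B (-1.90 to -1.88), -1.62 for TNRC6A (-1.64 to -1.61) and -1.20 for TNRC6C (-1.24 to -1.15). All 3 members were thus past 2-fold lower, where the background was 3.17% of genes lower and 2.5% higher (263 genes lower under scaling by total counts, against 402, and 522 higher, against 316). Both pull-downs also entered the choice of the members, so this count describes them and is no test. As a share of all counts, the family made up 0.163% of the miR-491-5p pull-down and 0.0302% of its input, and 0.505% of the control pull-down and 0.0273% of its input. The exact binomial intervals were 0.162 to 0.164%, 0.0298 to 0.0307%, 0.503 to 0.506% and 0.0269 to 0.0278%.

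The inputs, which give RNA levels in the lysate after transfection, differed far less. TNRC6A had a log2 input ratio of miR-491-5p over control of -0.01 (-0.07 to 0.05), an interval that held 0. TNRC6B had 0.22 (0.18 to 0.26), and TNRC6C had 0.53 (0.38 to 0.67), or 1.44-fold, which put TNRC6C at percentile 95.3 of all genes. None of the 3 passed 2-fold, where the background was 0.727% of genes higher and 0.513% lower. The input ratio of TNRC6C rests on 1091 counts with miR-491-5p against 616 for the control. It also uses the control input with its liver transcripts, whose part in this ratio was not tested.

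The enrichment of the design text divides the pull-down ratio by the input ratio and is the same as the miR-491-5p bead ratio minus the control bead ratio on the log2 scale. It was -2.11 for TNRC6B (-2.15 to -2.06), -1.72 for TNRC6C (-1.87 to -1.57) and -1.61 for TNRC6A (-1.68 to -1.55). The median of all genes was 0.00. Past 2-fold lower were 3 of 3 members and 5.32% of all genes, and 4.46% were higher (445 genes lower under scaling by total counts, against 673, and 888 higher, against 565). Their percentiles among all genes were 0.727, 1.29 and 1.62 in the order TNRC6B, TNRC6C and TNRC6A. Both bead ratios entered the choice of the members, so these figures are a description and no test. Between TNRC6A and TNRC6C the enrichment differed by 0.11, with an interval of -0.05 to 0.27, and TNRC6B was lower than TNRC6A by an amount whose interval left out 0 (-0.49, -0.57 to -0.42). Without the control input the value becomes the pull-down ratio itself. The enrichment was then -1.89 for TNRC6B, -1.20 for TNRC6C and -1.62 for TNRC6A. TNRC6A minus TNRC6C was in that case -0.43 (-0.48 to -0.38), of the other sign and with an interval that left out 0. TNRC6B minus TNRC6A kept its sign at -0.26 (-0.29 to -0.24). Among the 337 genes past 2-fold on both beads, the median enrichment was -0.16, 214 had the higher bead ratio with the control, and 36 (10.7%) had an enrichment of -1 or less.

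The make-up of the family's mRNA pool varied little by comparison. TNRC6B made up 54.7% of the summed level per kilobase in the miR-491-5p pull-down and 55.2% in its input, and 60.3% in the control pull-down and 52.8% in its input. TNRC6A made up 37.2% and 35.8% with miR-491-5p, and 34.2% and 40.2% with the control. TNRC6C stayed below 10% in every library, at 8.11% and 9.04% with miR-491-5p and 5.54% and 6.99% with the control. TNRC6B per kilobase was 1.47 times TNRC6A in the miR-491-5p pull-down and 1.54 times in its input, against 1.76 times in the control pull-down and 1.31 times in its input. The control pull-down was therefore the library richest in TNRC6B relative to both paralogs.

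**Figure D3:**
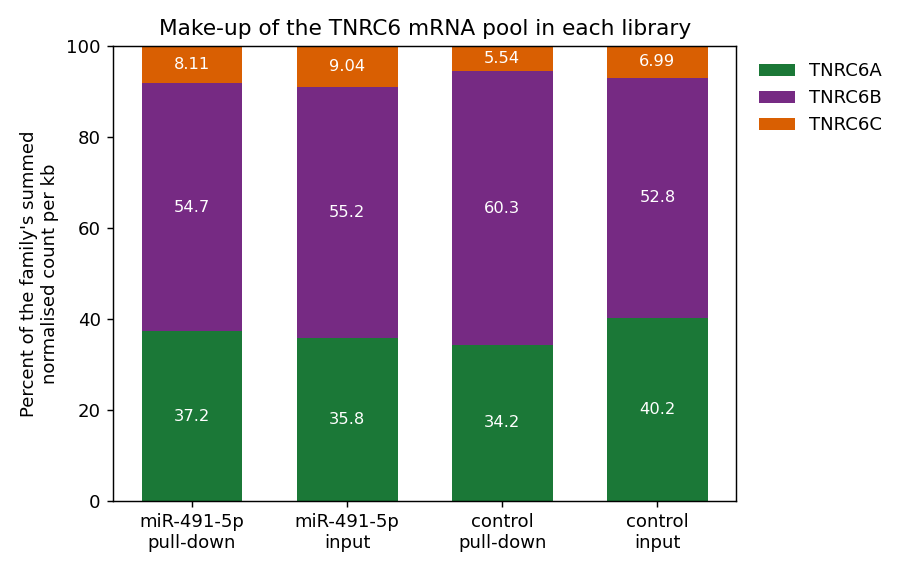
Share of each TNRC6 gene in the family's summed normalised count per kb, in percent, 1 stacked bar per library. TNRC6B is the largest part in all 4 bars, between 52.8% and 60.3%, and its largest share is in the control pull-down.

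The members share a feature that the choice did not use. All are long, at percentiles 99.3 (TNRC6B), 95.1 (TNRC6A) and 92.3 (TNRC6C) of summed exon length. Across genes the median bead ratio was higher where the summed exons were longer. The median log2 bead ratio was -0.50 on the miR-491-5p beads and -0.58 on the control beads in the shortest decile of genes. It was 0.09 and 0.26 in the longest decile (1267 genes of at least 10258 bases), to which all 3 members belong. The highest bead ratios did not follow the medians. Their 95th percentile was 1.25 and 1.77 in the shortest decile, against 1.09 and 1.45 in the longest. The 337 genes past 2-fold on both beads had a median length of 3978 bases, against 4864.5 for all genes. Across the 12662 genes, which are not independent, Spearman's rho with length was 0.25 and 0.29. The members' ranks within the longest decile come from the bead ratios that chose them and only place them among genes of like length. On the miR-491-5p beads 6, 5 and 9 genes of the longest decile were above TNRC6B, TNRC6A and TNRC6C, and on the control beads 1, 2 and 3. These counts include other members, so TNRC6A and TNRC6B are among the genes above TNRC6C on both beads. TNRC6B is also among those above TNRC6A on the control beads. The members lay 1.87 to 2.08 above that decile's median in log2 ratio with miR-491-5p, and 3.42 to 3.95 above it with the control. In enrichment the members had -1.61 to -2.11, against a median of -0.15 for the longest decile.

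**Figure D4:**
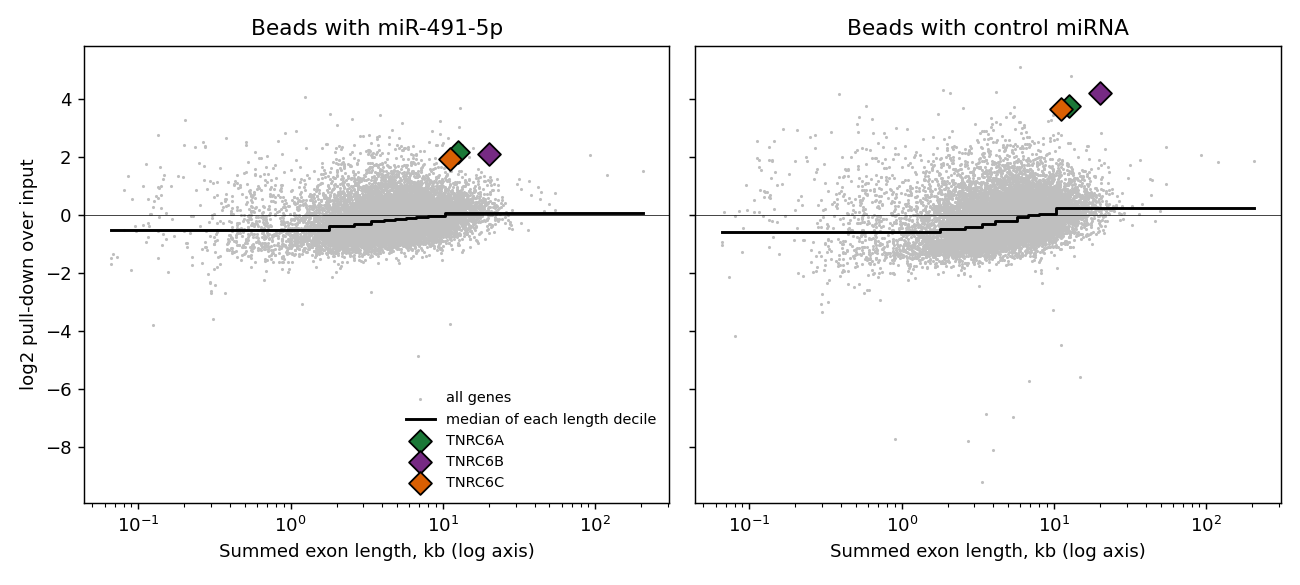
log2 pull-down over input against summed exon length (kb, log axis) for the beads with miR-491-5p (left) and the control miRNA (right). Grey points are all genes, the black line is the median of each length decile, and diamonds are the TNRC6 genes. The line climbs to 0.09 and 0.26 in the longest decile, and the diamonds lie at 1.95 or more and at 3.68 or more.

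Normalised counts in the lysate differed widely among the 3. The deciles here use the mean normalised count of both inputs, which was not divided by exon length. TNRC6B was in the highest decile of genes, TNRC6A in decile 8 and TNRC6C in decile 5. Per kilobase TNRC6B was below the highest decile, at percentile 66.0 in the miR-491-5p input and 62.6 in the control input. TNRC6A and TNRC6C were lower still. The ranks on the beads within these deciles use the chosen ratios again and say nothing about abundance. Above TNRC6B there were 2 of 1267 genes on the miR-491-5p beads and 0 on the control beads, above TNRC6A 1 and 1 of 1266, and above TNRC6C 4 and 0 of 1266. The medians of these deciles lay between -0.47 and -0.11 with miR-491-5p and between -0.42 and -0.17 with the control.

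Within 500 kb of the 3 loci on either side, 16 genes passed the count minimum. Of these 0 were 2-fold higher on both beads, which is near the background of 2.66% of genes. Their bead ratios ran from -0.74 to 0.65 with miR-491-5p and from -1.25 to 1.61 with the control. These were below the ratios of every member, and the members had been chosen for high ratios. ADSL, which encodes an enzyme of purine synthesis and starts 10692 bases after TNRC6B, had -0.61 and -0.71. TMC6, which lies 1623 bases beyond TNRC6C, had -0.38 and -0.32. The highest neighbour was SOCS3, a suppressor of cytokine signalling near TNRC6C, with 0.65 and 1.61. Reads were counted without regard to strand and reads over exons of 2 genes were left out, so overlapping genes can lose reads. No exon of another gene overlapped TNRC6A or TNRC6B. The 3′ end of TNRC6C shares 1438 exon bases with ENSG00000204282.4 on the minus strand, which had 4 and 5 counts in the miR-491-5p pull-down and input and 33 and 0 in the control pull-down and input. Another 5 genes lie inside the spans of the 3 loci without sharing exon bases, and none passed the count minimum.

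**Figure D5:**
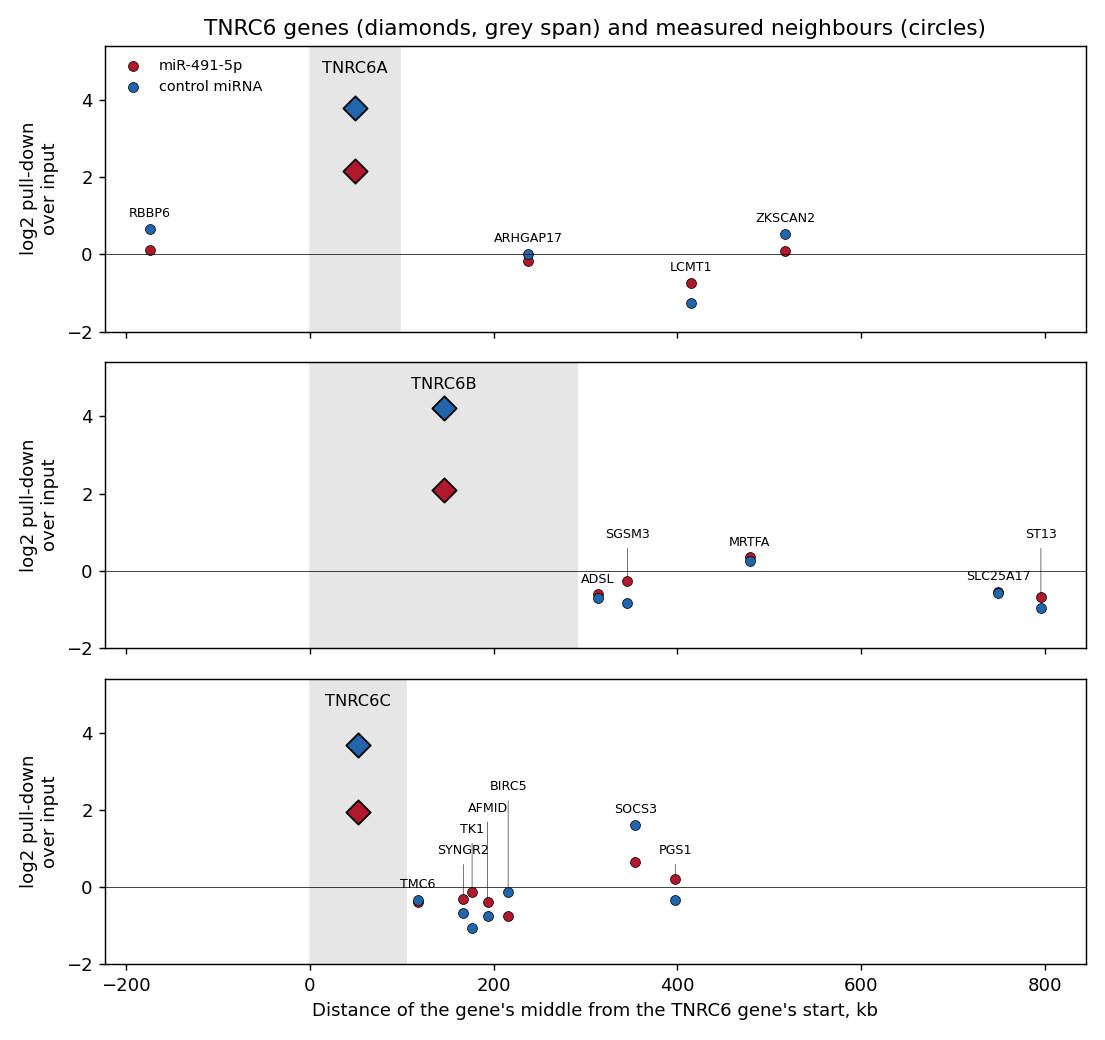
log2 pull-down over input of each TNRC6 gene (diamonds, grey span) and of the measured genes within 500 kb (circles), by distance in kb from the TNRC6 gene's start, for miR-491-5p (red) and the control (blue). The diamonds lie at 1.95 to 4.21, and the highest circle, SOCS3, at 1.61.

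The genes with a profile most like each member were found by Euclidean distance over the 4 libraries, on log2 normalised counts minus the gene's own mean. Among the 12662 measured genes the nearest to TNRC6A was TNRC6B, at a distance of 0.31, and TNRC6C was at rank 3 with 0.51. TNRC6B in turn had TNRC6A nearest and TNRC6C at rank 3 with 0.63. TNRC6C had TNRC6A at rank 3 and TNRC6B at rank 5. The members were chosen for high values in both ratios, so some likeness among them is built in. NORAD, a long noncoding RNA known for binding Pumilio proteins, was among the 5 nearest of all 3, at 0.47 from TNRC6C, 0.51 from TNRC6A and 0.70 from TNRC6B. Its log2 bead ratios were 1.61 on the miR-491-5p beads and 3.38 on the control beads, and its enrichment was -1.77. ENSG00000264940.4, a locus of 581 bases with no name here, was also among the 5 nearest of all 3 (1.43 and 3.76), on 124 and 35 counts with miR-491-5p and 387 and 19 with the control. SF3A1, a subunit of the splicing factor SF3A, was near TNRC6A and TNRC6C (2.39 and 3.12), and FBXO34, an F-box protein gene, near TNRC6B (1.10 and 4.26).

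The proteins that work with TNRC6 were read from lists covering the whole silencing pathway, 73 genes of which 72 were measured. As a group they did not stand above their inputs, with median bead ratios of -0.20 on the miR-491-5p beads and -0.20 on the control beads, where all genes had -0.15 and -0.15. With miR-491-5p 4 of the 72 were at least 2-fold higher and 3 lower, where the background was 5.34% and 4.96% of genes. With the control 7 were higher and 6 lower, where it was 8.61% and 10%. Neither set of counts stands apart from these shares. On both beads 3 of the 72 were higher, where the background was 2.66% of genes. These were DICER1, which cuts the precursor to the mature miRNA (1.15 and 1.76), XRN1, the 5′ to 3′ exonuclease (1.08 and 1.09), and GIGYF1, a partner of the translation repressor EIF4E2 (1.05 and 1.32).

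The Argonaute mRNAs, whose proteins bind TNRC6 directly, showed smaller bead ratios than any TNRC6 gene. The TNRC6 genes were chosen for high ratios and the Argonautes were not, so this order is partly built in. With miR-491-5p and the control, AGO1 had 0.20 and -0.35, AGO2 0.63 and -0.00, AGO3 0.40 and 0.22, and AGO4 0.53 and 1.45. AGO4 on the control beads was the 1 value of these 8 past 2-fold. The background was 5.34% of genes higher and 4.96% lower with miR-491-5p, and 8.61% and 10% with the control. The enrichment of AGO4 was -0.92 (-1.02 to -0.82), whereas AGO1, AGO2 and AGO3 had 0.55, 0.63 and 0.19. The lowest biogenesis gene by the mean of both ratios was PRKRA, a partner of DICER1, at -0.83 and -1.02.

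Of the 18 deadenylation genes, which encode the enzymes that TNRC6 recruits and their cofactors, 0 passed 2-fold in either direction with either miRNA, with medians of -0.28 and -0.06. The background for this list and those that follow is again 5.34% higher and 4.96% lower with miR-491-5p, and 8.61% and 10% for the control. By the mean of both ratios TOB2, an adaptor of CCR4-NOT, was the highest at 0.41 and 0.71, and CNOT7, a catalytic subunit, the lowest at -0.97 and -0.60. Among 6 genes of poly(A)-binding proteins and their partners, PAIP1 had -0.41 on the miR-491-5p beads and 2.11 on the control beads, and PAIP2 had -1.13 and -1.11. Of the 24 decapping and P-body genes, 3 were higher and 2 lower with miR-491-5p, and 4 higher and 4 lower with the control. GIGYF1 was the highest of these by the mean and LSM2, an LSM ring subunit, the lowest at -0.72 and -1.59. The 13 measured genes of miRNA turnover and Argonaute control held 0 past 2-fold with either miRNA. By the mean of both ratios TENT4A, a poly(A) polymerase, was the highest of them (0.19 and 0.61) and FKBP4, a cochaperone of HSP90, the lowest (-0.54 and -0.80).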

How the data were processed

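The authors deposited 1 table of whole-number read counts per gene without normalization. Per the file headers, reads were counted with featureCounts 1.5.0-p1 over exons of GENCODE release 24, with marked duplicates left out and each mate counted by itself. Strand was not used, although the labels' protocols name a strand-specific library kit. STAR, GRCh38 and DESeq2 1.10.1 come from the submitters' processing notes. Groups came from the sample titles.

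Scaling here used DESeq2 1.42.0 size factors (1.24 and 0.957 for the miR-491-5p pull-down and input, 1.13 and 0.778 for the control pull-down and input). They take the median gene, among genes counted in all 4 libraries, as unchanged from its own mean over the libraries. A ratio is thus relative to other RNAs and not an amount held. The median bead ratio of the 12662 genes below was -0.15 with either miRNA. Log2 ratios used normalised counts plus 1, with intervals of 1.96 counting standard errors (0.5 added to each count). Levels per kilobase used the table's exon length, which sums over all isoforms. Calls needed 2-fold and an interval leaving out 0, among the 12662 genes that averaged at least 50 normalised counts. Scaling by total counts, edgeR 4.0.16 TMM, a pseudocount of 5 and other count minimums were alternatives. The ratio calculation was tested on simulated counts drawn with counting error only. That simulation says nothing about spread between replicates or about several counts from 1 molecule.

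Genes were named by position on RefSeq GRCh38.p14 (11615 of 12662). TNRC6B matched within 17 bases at the start and 0 at the end. TNRC6C matched at its end exactly and TNRC6A within 1414 bases, and their starts lay 69 and 44 bases from a RefSeq start site. The members, the lists and the rule for named genes (all Argonautes, the highest and lowest of every other list by mean bead ratio, the 5 nearest profiles of each member, genes overlapping a member) were chosen with earlier results of these data known. ACACA, ENSG00000278896.1, ADSL, TMC6, SOCS3 and XRN1 fall outside that rule and were named after their values were seen.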

Additional observations from a re-analysis of the deposited data

Results flagged for a closer look

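For AGO1 and PAIP1, named above from the silencing pathway lists, the bead ratios had opposite signs with the miRNAs, each with a counting interval that left out 0. PAIP1, which encodes a partner of the poly(A)-binding protein, had a log2 pull-down over input of -0.41 (-0.46 to -0.37) with miR-491-5p and 2.11 (2.07 to 2.15) with the control, so that the miR-491-5p ratio minus the control ratio was -2.53. AGO1 had 0.20 (0.16 to 0.24) with miR-491-5p and -0.35 (-0.40 to -0.30) with the control, a difference of 0.55. Such opposite signs were not rare. They were found in 16 of the 72 measured genes of these lists (22.2%) and in 1767 of all 12662 (14.0%). Only genes named by the rule given above were examined for this flag, so other listed genes with opposite signs are not shown. In enrichment, 4 of the 72 were at least 2-fold lower and 1 higher, where the background was 5.32% and 4.46% of genes. Both differences come from 1 library per group and were not tested.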

How the results depend on the processing

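No paired analysis was possible because each group has 1 library. Every bead ratio, pull-down ratio and enrichment of the 3 members kept its direction and stayed past 2-fold under each alternative run. A pseudocount of 5 moved no member's value beyond its counting interval. Under total-count scaling the all-gene median shifted by 0.32 (miR-491-5p beads), 0.14 (control beads), 0.18 (enrichment) and 0.16 (pull-down ratio), and the members with it. In the order TNRC6A, TNRC6B and TNRC6C it gave 2.49, 2.42 and 2.27 on the miR-491-5p beads, 3.92, 4.35 and 3.82 on the control beads, -1.43, -1.93 and -1.54 in enrichment, and -1.47, -1.73 and -1.04 for the pull-downs against each other. TMM gave 4.24 for TNRC6B on the control beads. With the miR-491-5p input in place of the control input, chosen after seeing the data, the control bead ratios of TNRC6B and TNRC6C were 3.99 and 3.15 and the enrichments -1.89 and -1.20.

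The counts of genes past 2-fold, read as background, moved more. Scaling by total counts gave 1284 higher and 130 lower on the miR-491-5p beads, 820 lower on the control beads, 577 higher on both, 888 and 445 in enrichment, and 522 and 263 in the pull-down ratio. Without a count minimum (35012 genes) there were 2624 higher and 1023 lower on the miR-491-5p beads, 2850 higher on the control beads, 1129 higher on both, 1275 and 1302 in enrichment, 1175 and 1199 in the pull-down ratio, and 479 and 476 in the input ratio. A minimum of 200 (10370 genes) gave 325 higher on the miR-491-5p beads, 696 on the control beads, 123 on both, 355 in enrichment, 180 in the pull-down ratio, and 30 higher and 23 lower in the input ratio. The changes with the count minimum follow from more or fewer genes entering, since the ratios stayed the same. The share of genes called changed too, and 214 of the 337 genes higher on both beads fell below the minimum of 200. Depth limited TNRC6C most, with 616 counts in the control input.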
